A study of Mus musculus with 8 samples.

Results

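Promoter acetylation of 39 stress-response genes was examined in mouse cerebellum. The genes were chosen by name, from 3 linked pathways: the heat shock response, the unfolded protein response of the endoplasmic reticulum (ER), and the ATF4 branch of the integrated stress response. All 39 were found among 21883 protein-coding genes of the RefSeq table for build GRCm38.p6, the assembly that mm10 names. They comprised 12 cytosolic chaperones and co-chaperones, 3 mitochondrial chaperones, 10 ER chaperones and folding or degradation factors, 7 stress transcription factors, 3 sensor kinases and 4 targets of ATF4. A gene counted as detected in a library when a peak of histone H3 lysine 9 acetylation (H3K9ac) touched the 1 kb on either side of either end of the gene.

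The series holds 4 libraries from heterozygous 266Q knock-in mice, in which 1 copy of Atxn7 encodes ataxin-7 with a long glutamine tract, and 4 from wild type mice. All were C57BL/6 cerebella at 9 weeks of age, precipitated with the same H3K9ac antibody. The series' design text calls the knock-in mice symptomatic and the controls littermates. The libraries are named KI 1 to 4 (knock-in) and WT 1 to 4 (wild type) by their replicate numbers. The labels do not say whether a library is 1 animal or a pool, so the spread between libraries may be technical. Each library came as a list of peaks with positions and a score. The lists were of very unequal length, from 1266 to 11409 peaks. Replicates 1 and 2 of both genotypes held 7735 to 11409 peaks with median widths of 1065 to 1246 bp (long lists), and replicates 3 and 4 held 1266 to 5571 peaks with median widths of 132 to 148 bp (short lists). Read depth is unknown. In KI 1, KI 2, WT 1 and WT 2, peaks were found at 8, 8, 8 and 7 of 8 granule neuron markers and at 3, 4, 2 and 4 of 8 Purkinje neuron markers. None of 6 markers of astrocytes and Bergmann glia and none of 5 of microglia had a peak in any library. Of 6 oligodendrocyte markers 1 had a peak, in KI 1, KI 2 and WT 1. Of 4 endothelial markers 1 had one, in KI 3, and of 6 liver and muscle markers 1, in KI 1. The tissue was used whole, so a promoter that is acetylated in fewer cells and one that is less acetylated in each cell cannot be told apart.

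H3K9ac marks promoters in active use and is laid down in part by SAGA, the complex that contains ataxin-7. Misfolded protein in the cytosol frees the transcription factor HSF1, which binds heat shock elements and raises chaperones of the HSP70, HSP90 and DNAJ families. In the ER, the sensors IRE1 (Ern1), PERK (Eif2ak3) and ATF6 respond to unfolded protein. IRE1 splices the messenger of Xbp1, ATF6 is cleaved to an active factor, and both act on ER stress response elements at chaperone genes. PERK and GCN2 (Eif2ak4) phosphorylate eIF2alpha, which favours translation of ATF4, and ATF4 acts with C/EBP family partners such as CHOP (Ddit3) on amino acid and redox genes. Polyglutamine proteins are a load on these chaperones.

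Promoters were searched for elements bound by factors of the 3 pathways, and they are shown here because most of the long-list peaks described below lie over them. Sequences are from RefSeq (GRCm38.p6), 250 bases before to 50 bases after the annotated start, 5′ to 3′ along the gene. The table held 32 of the 39 members, of which 18 had at least 1 of the 4 elements searched and 14 had none. Capitals mark matched letters, on either strand. The ER stress response element (ERSE, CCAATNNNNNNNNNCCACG) was in the promoters of 5 of the 32 members and of 29 of 17491 coding genes (0.166%). These are its sites, each with 6 bases on either side, in the genes for BiP, GRP94 (both sites), P58IPK, calreticulin and calnexin.
Hspa5: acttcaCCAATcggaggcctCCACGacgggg
Hsp90b1: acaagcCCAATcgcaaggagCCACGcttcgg
Hsp90b1: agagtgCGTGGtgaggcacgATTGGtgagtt
Dnajc3: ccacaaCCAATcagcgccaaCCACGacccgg
Calr: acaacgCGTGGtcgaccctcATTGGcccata
Canx: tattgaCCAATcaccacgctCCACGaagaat

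An element bound by C/EBP and ATF family pairs (TGATGNAA) was in 5 of 32 members and in 4.13% of coding genes. Of the 4 ATF4 targets, 3 had it, and so did Atf3 and Herpud1. The sites are printed with 6 bases on either side.
Chac1: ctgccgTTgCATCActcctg
Asns: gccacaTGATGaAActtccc
Trib3: tcaggtTTaCATCAgccggg
Atf3: tcgcacTTgCATCAccaagt
Herpud1: ggcgggTTgCATCAgcccgc

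A pair of heat shock element units (GAANNTTC) was in 9 of 32 members and in 8.44% of coding genes. The members were Hspa1a, Hspa1b, Hspb1, Hsph1, Dnaja1, Bag3, Hspd1, Hspe1 and Asns, where it overlaps the C/EBP-ATF match. The match of Hspd1 is at its second annotated start. The unfolded protein response element TGACGTGG was in none of the 32 and in 0.823% of coding genes. A match is only a match of letters, and binding was not measured. Heat shock sites are shown from 3 genes that are described below, again with 6 bases on either side.
Dnaja1: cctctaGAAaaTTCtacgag
Hspe1: gttctaGAAccTTCcggaag
Hspa1a: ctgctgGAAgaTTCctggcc

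In replicates 1 to 3 of both genotypes the stress genes were detected more often than the average gene, and more of them in KI lists. In WT 3 the interval given below covers the share of all genes, and in replicate 4 no member was found. In KI 1 to 4, 31, 28, 10 and 0 of 39 had a peak, and in WT 1 to 4, 23, 19, 3 and 0. As shares these were 79.5% (exact Clopper-Pearson 95% interval 63.5 to 90.7), 71.8% (55.1 to 85.0), 25.6% (13.0 to 42.1) and 0% in KI, and 59.0% (42.1 to 74.4), 48.7% (32.4 to 65.2), 7.69% (1.62 to 20.9) and 0% in WT. Intervals cover counting error only. A count of 0 of 39 allows a share of up to 7.69% when set at 3 counts, and of up to 9.03% by the exact interval. Over all protein-coding genes the shares were 39.1%, 36.2%, 10.4% and 0.891% in KI and 31.9%, 27.8%, 5.43% and 1.46% in WT. Genes of all kinds were thus found more often in KI 1 to 3 than in WT 1 to 3. In all, 33 members had a peak in at least 1 library, where the background over all genes was 45%. The mean over libraries was 44.2 ± 37.9% of members (SD, n = 4) in KI and 28.8 ± 29.3% (SD, n = 4) in WT. The spread within a genotype was larger than this difference, and most of it lay between the long and the short lists. Within the long lists the members' shares did not overlap between genotypes, and neither did those of all genes. Since the members were chosen with earlier results of these data known, the mean was not tested.

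**Figure D1:**
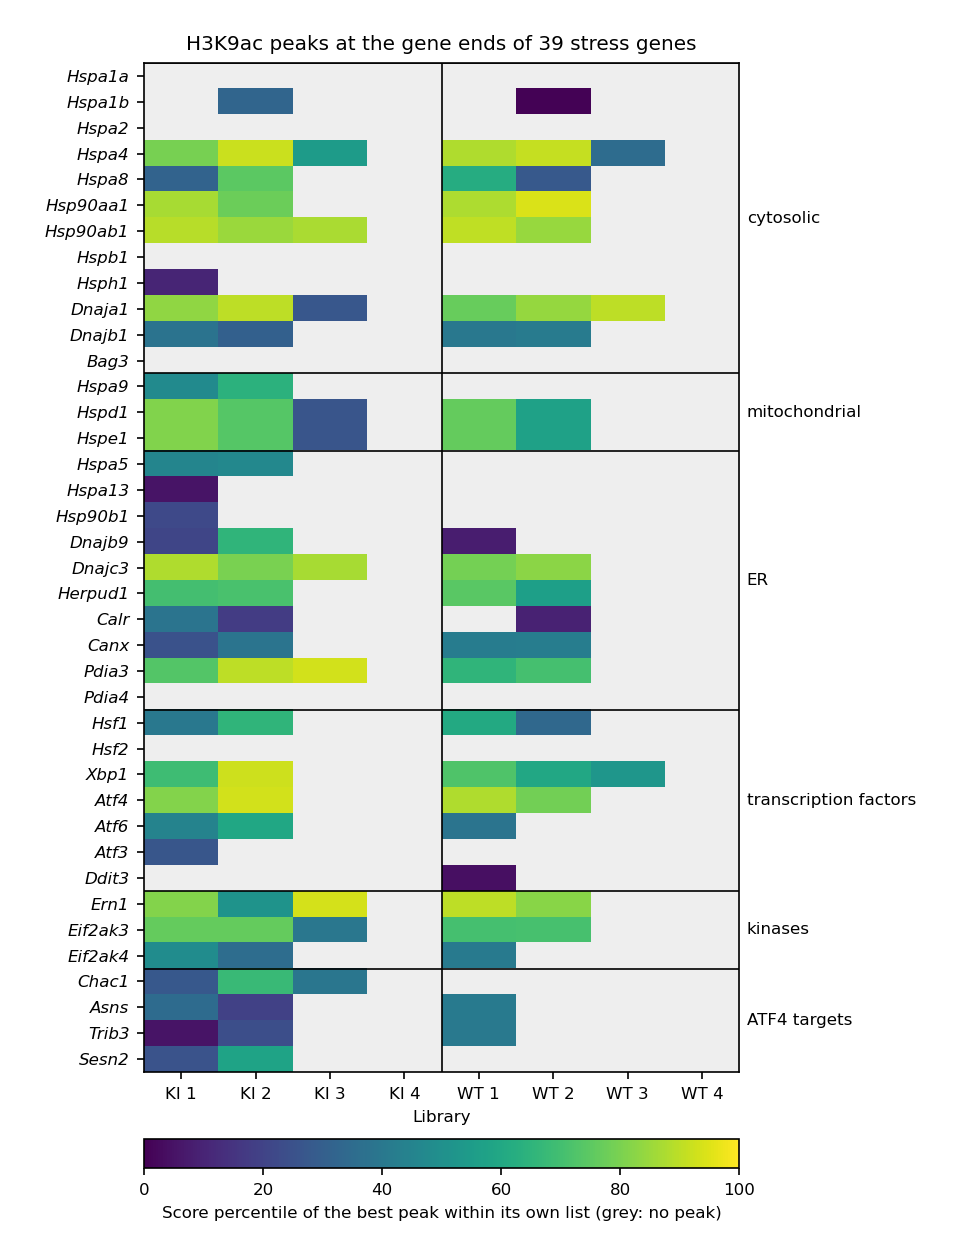
Rows are the 39 genes in their classes and columns the 8 libraries (KI, knock-in; WT, wild type; replicates 1 to 4). Colour gives the percentile of the gene's best peak among the scores of its own list, and grey means no peak. No gene has a peak in replicate 4 of either genotype, and Chac1 has 3 coloured cells, all in KI.

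Gene by gene, no member passed the test between genotypes. The test used was exact and two-sided. Holding fixed in how many libraries a gene was found, it asked whether their split between genotypes departed from each library's odds of detection. Those odds were fitted to the genes found in each library, so a rise of most genes in 1 genotype enters them. Of 9822 genes in 1 to 7 libraries, 0 (0%) passed at an adjusted p of 0.05 and 90 (0.916%) had an unadjusted p under 0.05. Of the 33 members tested, 0 passed and 1, Chac1, had an unadjusted p under 0.05. Fisher's exact test cannot take list length into account. It could not bring any member under 0.05 even before adjustment, because no member had a peak in replicate 4. Over all genes it gave 0 that passed and 0 with an unadjusted p under 0.05. These counts therefore say nothing about the members. In direction, 21 of 33 members (63.6%) were in more KI libraries, against 48.1% of all genes tested. The reverse held for 2 members (6.06%), Xbp1 and Ddit3, against 11.6%, and 10 were in equally many. Hspd1 and Hspe1 share every peak and enter these counts as 2 genes. Counted once, they leave 20 of 32 (62.5%) in more KI libraries. A lead of 2 or more libraries in KI was seen for 4 members (12.1%), Chac1, Hspa5, Hspa9 and Sesn2, against 8.8% of genes. No member led by 2 in WT, where the background was 0.672%. Within the long lists, 14 of the 16 members found in 1 to 3 of them (87.5%) were in more KI lists, against 71.6% of all such genes, and 1 (6.25%) was in more WT lists, against 14.3%.

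The transcription factors were detected equally often in the genotypes, at 9 detections over the lists of each, and the sensor kinases at 8 in KI and 5 in WT. Of the 7 factors, 5, 4, 0 and 0 had a peak in KI 1 to 4 and 5, 3, 1 and 0 in WT. Of the 3 kinases, 3, 3, 2 and 0 had one in KI and 3, 2, 0 and 0 in WT. Atf4, the factor at the end of the PERK and GCN2 branch (chromosome 15, 80255184 to 80257545), had a peak in both long lists of each genotype. Its peaks were 1223 and 1706 bp wide in KI and 999 and 2229 bp in WT. A peak's score was read as its percentile among the scores of its own list, where higher is stronger. The Atf4 peaks stood high, at percentiles of 81.5 and 93.2 in KI and 88.2 and 78.6 in WT. The widths overlap between genotypes. In WT 2 the Atf4 peak also reached the window of Mief1.

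Xbp1, the factor made by IRE1 splicing (chromosome 11, 5520641 to 5525993), was in 2 KI and 3 WT libraries, with an exact p of 0.223. Its peaks measured 1408 and 1506 bp in KI 1 and KI 2, and 1700, 1393 and 192 bp in WT 1 to 3. It was 1 of 3 members, with Hspa4 and Dnaja1, that reached the short list of WT 3. Ern1, which encodes IRE1 itself, was in 3 KI and 2 WT libraries, as was Eif2ak3, which encodes PERK. Eif2ak4 and Atf6 were each in 2 KI and 1 WT libraries. The exact p of each of these 4 genes was 1.00.

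Hsf1, the master factor of the heat shock response (chromosome 15, 76477362 to 76501155), had a peak in the 4 long lists. The widths were 1216 and 1438 bp in KI and 1350 and 1137 bp in WT, which overlap. Each of these peaks also touched the window of Bop1, a neighbour whose end lies close by, so the peak cannot be given to Hsf1 alone. Atf3, an early stress-induced factor, had a peak in KI 1 only, of 914 bp.

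For some factors the fixed window decided the count. Hsf2 counted as undetected, yet the long lists all had a peak over its annotated start site, which lies inside the gene model, more than 2 kb from its end. These peaks ran from -291 to 1058 and -282 to 790 bp around that start in KI 1 and KI 2, and from -154 to 1081 and -226 to 743 bp in WT. Their score percentiles were 84.4, 69.9, 87.2 and 74.4. Ddit3, which encodes CHOP, was detected in WT 1 only, by a peak of 1200 bp at percentile 4.06 that ended 265 bp upstream of the start and also touched the window of Mbd6. Just outside the limit, KI 1 and KI 2 had peaks ending 1075 and 1270 bp upstream, at percentiles 84.7 and 88.9. WT 1 and WT 2 had them at 1525 and 1571 bp, at percentiles 92.7 and 79.5. Both genotypes thus had a strong peak upstream of Ddit3 that the rule does not count. These strong peaks lie on the same side as the weak one that touched the window of Mbd6, so they cannot be given to Ddit3 alone. For Atf6, a peak of KI 3 at percentile 3.48 lay 1188 bp from a gene end and was likewise not counted. With a window of 3 kb, which takes in all these peaks, the 7 factors had 15 detections over the KI and 12 over the WT lists, in place of 9 and 9.

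ER chaperones and folding factors were found in more KI lists. Of 10 genes, 9, 7, 2 and 0 had a peak in KI 1 to 4 and 5, 5, 0 and 0 in WT. Over the libraries 7 were in more KI lists, 0 in more WT lists and 2 in equally many. Of all genes tested, 48.1% were in more KI and 11.6% in more WT lists. Detections summed to 18 in KI and 10 in WT. The KI sum was 9 without KI 1 and 11 without KI 2, and the WT sum was 5 without WT 1 or without WT 2. Hspa5, which encodes BiP, the central HSP70 of the ER (chromosome 2, 34772090 to 34776529), had peaks in KI 1 and KI 2 and in no WT list. They were 1473 and 1008 bp wide, ran across the start site, and stood in the middle of their lists at percentiles 45.7 and 46.5. The exact p was 0.501 and the adjusted p 1.00. Of 7097 genes in both long KI lists, 10.4% had no peak in either long WT list. Members gave 4 of 27, the same 4 that led by 2 or more libraries. The promoter over which the Hspa5 peaks lie, chr2:34771840-34772139 on the plus strand, is shown whole because it is the textbook ER stress promoter. Only matched letters are in capitals.
Hspa5: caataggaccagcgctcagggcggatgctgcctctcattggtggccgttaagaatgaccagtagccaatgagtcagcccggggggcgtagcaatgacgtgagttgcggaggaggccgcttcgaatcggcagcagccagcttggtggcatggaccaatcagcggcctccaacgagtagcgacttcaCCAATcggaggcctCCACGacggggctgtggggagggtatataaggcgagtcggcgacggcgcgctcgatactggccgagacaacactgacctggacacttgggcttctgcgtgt

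The other members that carry the ERSE varied in their detection. Canx (calnexin, a lectin chaperone) was in the 4 long lists, with widths of 1161 and 836 bp in KI and 1240 and 1126 bp in WT. Dnajc3 (P58IPK, a BiP co-chaperone) was in 3 KI and 2 WT libraries. Calr (calreticulin) was in 2 and 1, and its peak in WT 2 stood at percentile 9.67. Hsp90b1 (GRP94, the HSP90 of the ER) was in KI 1 only, with 2 peaks on either side of the start, at percentiles 22.0 and 5.79, which also touched the window of Ttc41. Of the rest, Pdia3 (a disulphide isomerase) was in 3 and 2 libraries, with its peaks shared with the window of Catsper2. Herpud1, which serves ER-associated degradation, was in 2 and 2. Dnajb9 (ERdj4) was in 2 and 1, Hspa13 in 1 and 0, and Pdia4 in none.

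The ATF4 targets had the largest difference in mean detection of the 6 classes, 56.2 ± 51.5% of genes in KI and 12.5 ± 25% in WT (SD, n = 4 each), which is smaller than the spread within KI. All 4 had a peak in KI 1 and KI 2, and 1 and 0 had one in replicates 3 and 4. In WT 1 to 4 the counts were 2, 0, 0 and 0. All 4 genes were in more KI than WT libraries, as were 48.1% of all genes tested. The summed detections of 9 in KI and 2 in WT became 5 in KI without KI 1 or without KI 2, and 0 in WT without WT 1. Their peaks were weak within the lists, with a median score percentile of 26.7 over 8 values in the long KI lists (range 5.17 to 67.7). The medians over all genes with a peak were 57.5 and 62.2 in those lists. Genes with weak peaks in KI often lacked a WT peak. Among genes whose mean percentile over the long KI lists was up to 25, 53.5% had none in the long WT lists. The share was 20.9% between 25 and 50, 3.36% between 50 and 75 and 0.483% above 75. Of the members, 3 of 9 lacked one between 25 and 50 (Chac1, Hspa5 and Sesn2), 1 of 6 between 50 and 75 (Hspa9), 0 of 1 up to 25 and 0 of 11 above 75. The part of peak strength in the counts of these genes was not tested.

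**Figure D2:**
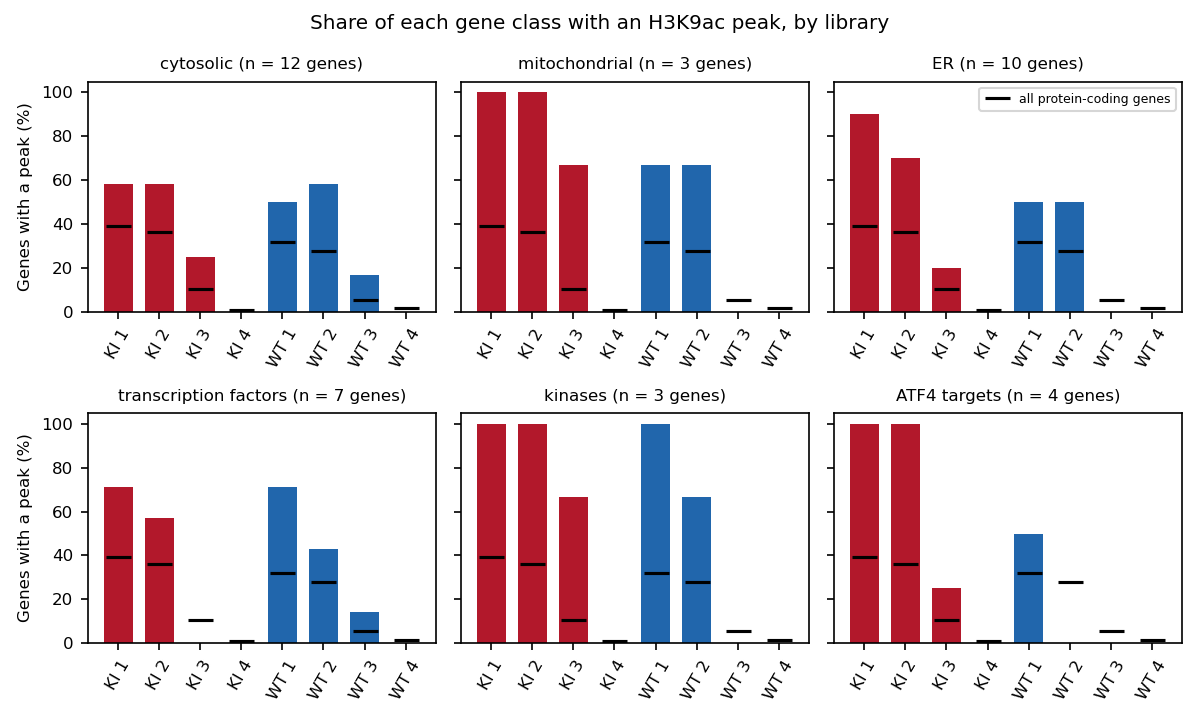
Bars give the percentage of genes of each class with an H3K9ac peak in each library (red, knock-in; blue, wild type; KI and WT 1 to 4), and black dashes the percentage of all protein-coding genes in that library. The ATF4 targets stand at 100% in KI 1 and KI 2 and at 50% and 0% in WT 1 and WT 2, whereas cytosolic chaperones stand at 58.3% and 58.3% against 50% and 58.3%.

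Chac1, which encodes an enzyme that degrades glutathione and is a sensitive readout of ATF4 and CHOP (chromosome 2, 119351242 to 119354326), had a peak in 3 KI libraries and no WT library. The peaks were 882, 1544 and 127 bp wide in KI 1, 2 and 3, at score percentiles of 27.7, 67.7 and 39.2. Those of replicates 1 and 2 covered the start site, from -553 to 328 bp and from -307 to 1236 bp, and the narrow peak of replicate 3 lay from 685 to 811 bp. None touched the window of another gene. The exact p was 0.00948, with an adjusted p of 1.00, and 24 of 9822 genes (0.244%) had the same pattern of 3 and 0. Without KI 3 the exact p was 0.504. Peaks downstream of the gene, outside the limit of 1 kb, were in both genotypes. They lay 2141 and 1937 bp past its end in KI 1 and KI 2 and 1782 and 2083 bp in WT. With a window of 3 kb, which counts them, Chac1 was in 3 and 2 libraries and its exact p was 1.00. With a window of 500 bp it was in 2 and 0, with an exact p of 0.508. The promoter, chr2:119350992-119351291 on the plus strand, is shown with its C/EBP-ATF match in capitals because the wide peaks of replicates 1 and 2 span the whole of it.
Chac1: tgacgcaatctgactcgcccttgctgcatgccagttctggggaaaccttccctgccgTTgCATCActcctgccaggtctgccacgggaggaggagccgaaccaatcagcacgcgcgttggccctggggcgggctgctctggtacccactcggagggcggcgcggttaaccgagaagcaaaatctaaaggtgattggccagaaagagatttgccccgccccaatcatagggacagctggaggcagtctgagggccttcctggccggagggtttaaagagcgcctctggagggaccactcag

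Sesn2, which encodes a stress-induced inhibitor of mTORC1 signalling (chromosome 4, 132492804 to 132510456), had peaks of 1129 and 1290 bp in KI 1 and KI 2 and none in WT, with an exact p of 0.501. Asns (asparagine synthetase) had peaks of 922 and 806 bp in the long KI lists and of 900 bp in WT 1. Trib3, which encodes a pseudokinase that damps the ATF4 response, had peaks of 877 and 711 bp and, in WT 1, of 1096 bp. The Trib3 peak had a higher percentile in that WT list (40.6) than in the KI lists (5.17 and 24.2). For Asns and Trib3 the exact p was 1.00. Asns carries its C/EBP-ATF and heat shock matches on overlapping letters just upstream of the start (chr6:7693160-7693459, minus strand), as the whole promoter shows.
Asns: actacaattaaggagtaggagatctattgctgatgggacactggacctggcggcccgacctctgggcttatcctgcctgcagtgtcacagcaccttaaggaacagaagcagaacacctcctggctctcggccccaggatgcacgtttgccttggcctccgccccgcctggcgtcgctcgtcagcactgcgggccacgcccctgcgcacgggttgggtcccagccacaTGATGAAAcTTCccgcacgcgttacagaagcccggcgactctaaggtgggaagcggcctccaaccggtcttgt

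**Figure D3:**
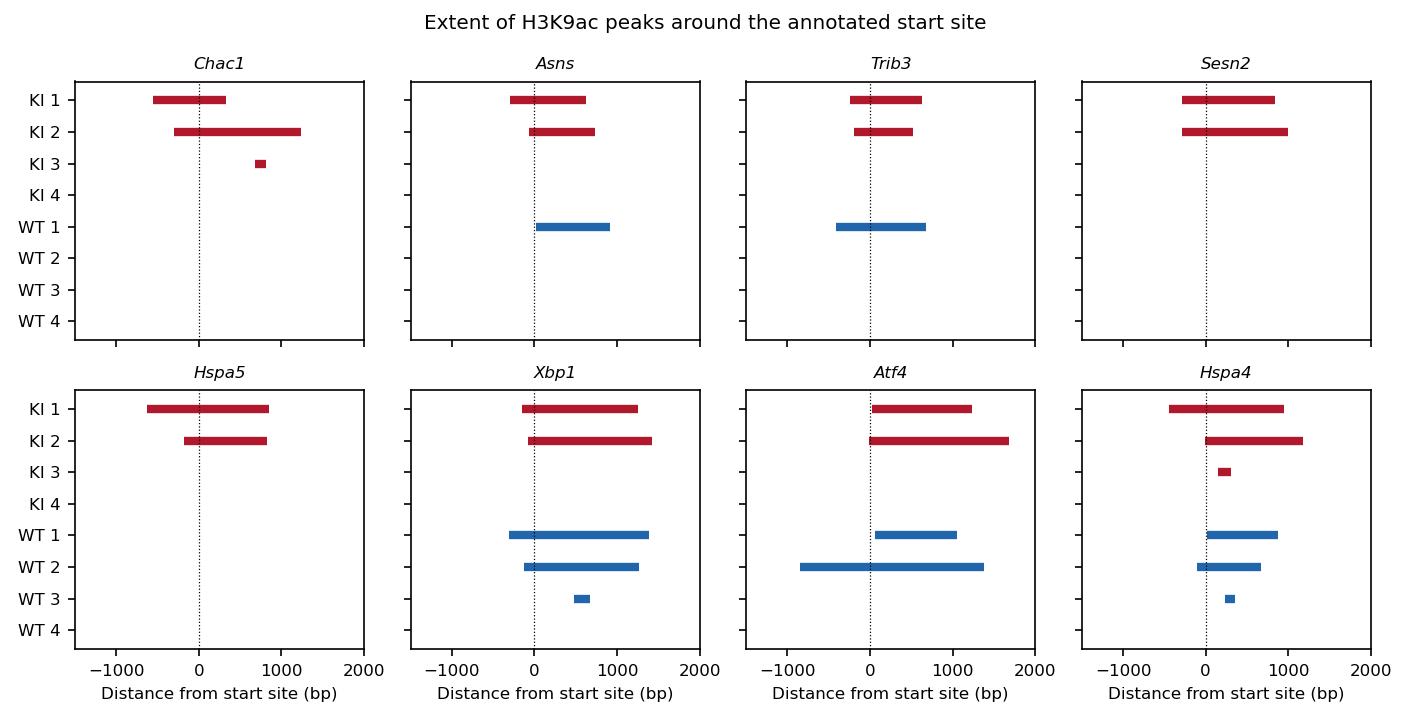
Each bar is an H3K9ac peak, drawn from its first to its last base relative to the annotated start site (dotted line at 0; positive values lie in the gene), for 8 genes and the 8 libraries (red, knock-in; blue, wild type). Peaks of the long lists mostly span the start, while the short peaks of KI 3 and WT 3 lie inside the gene, at 685 to 811 bp in Chac1 and at 484 to 675 bp in Xbp1.

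Cytosolic chaperones had similar counts in the genotypes. Of 12 genes, 7, 7, 3 and 0 had a peak in KI 1 to 4 and 6, 7, 2 and 0 in WT. Over the libraries 2 were in more KI lists, 0 in more WT lists and 6 in equally many. Hspa4, an HSP110-type nucleotide exchange factor (chromosome 11, 53259814 to 53300479), was in 3 libraries of each genotype. Its peaks measured 1397, 1177 and 159 bp in KI 1 to 3 and 868, 784 and 126 bp in WT 1 to 3. In the long lists both WT peaks were narrower than both KI peaks, as for 36.6% of the 5005 genes found in all 4. The score percentiles overlapped, at 79.6 and 91.9 in KI and 88.0 and 91.2 in WT. Dnaja1, an HSP40 co-chaperone (chromosome 4, 40722468 to 40734965), was likewise in 3 and 3, at 1847, 1756 and 145 bp against 1180, 1587 and 264 bp. All but 1 of its peaks also touched the window of Aptx.

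Of the HSP90 genes, Hsp90ab1 was in 3 KI and 2 WT libraries. Hsp90aa1 was in 2 and 2, as were Hspa8 (HSC70) and the HSP40 gene Dnajb1, all in the long lists. Hspa1a and Hspa1b encode the inducible HSP70, are near-identical copies, and had 0 and 2 libraries. The Hspa1b peaks were 834 bp at percentile 32.8 in KI 2 and 864 bp at percentile 0.582 in WT 2. Hspb1 (HSP27), Bag3 and the testis-enriched Hspa2 had no peak in any library, and Hsph1 had 1, in KI 1, at percentile 10.3. Reads from Hspa1a and Hspa1b can be placed on either copy, so their counts are uncertain. Their promoters differ at 4 of 300 positions (98.7% identical), numbered from the first printed base with the base of Hspa1a first: C44T, T47C, T249G and C276T. Both are on the minus strand, at chr17:34972107-34972406 and chr17:34959189-34959488, and are shown to make clear how little sequence separates them, with the heat shock match in capitals.
Hspa1a: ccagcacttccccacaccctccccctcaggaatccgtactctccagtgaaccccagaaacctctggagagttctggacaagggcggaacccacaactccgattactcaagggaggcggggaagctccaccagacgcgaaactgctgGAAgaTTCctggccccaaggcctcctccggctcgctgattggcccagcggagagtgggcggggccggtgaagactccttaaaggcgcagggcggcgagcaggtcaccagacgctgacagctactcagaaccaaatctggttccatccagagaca
Hspa1b: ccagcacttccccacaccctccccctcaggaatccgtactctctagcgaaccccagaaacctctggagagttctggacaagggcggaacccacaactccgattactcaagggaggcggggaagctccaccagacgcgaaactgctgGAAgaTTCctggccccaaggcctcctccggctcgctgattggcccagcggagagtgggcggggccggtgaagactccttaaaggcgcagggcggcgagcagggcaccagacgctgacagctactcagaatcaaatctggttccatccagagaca

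Of the mitochondrial chaperones, 3, 3, 2 and 0 of 3 had a peak in KI 1 to 4 and 2, 2, 0 and 0 in WT. Hspd1 (HSP60) and Hspe1 (HSP10) lie side by side on chromosome 1 (55077833 to 55088243 and 55088148 to 55091317), are transcribed in opposite directions from a shared promoter region, and every peak of one was the peak of the other. Both genes enter the counts given here, although their peaks are a single observation, in 3 KI and 2 WT libraries. The shared peak measured 1861, 1995 and 146 bp in KI 1 to 3 and 1995 and 1120 bp in WT 1 and WT 2. Hspa9 (mortalin, the mitochondrial HSP70) had peaks of 1723 and 1723 bp in the long KI lists, at percentiles 47.7 and 64.2, and none in WT. Its exact p was 0.501. The nearest WT peaks lay 4798, 5363 and 5700 bp from a gene end in replicates 1 to 3.

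Where a gene had a peak in all 4 long lists, the peak was usually wider in KI, as it was for genes in general. This held for 13 of 17 members (76.5%) and for 78.0% of 5005 genes. The median log2 ratio of summed width, KI over WT, was 0.31 for the members and 0.22 for all these genes. With Hspd1 and Hspe1 counted once it was 0.24, with 12 of 16 wider in KI. Both KI values exceeded both WT values for 7 members (41.2%), against 36.6% of all these genes. They were Hspa4, Hsp90ab1, Dnaja1, Dnajb1, Herpud1, Pdia3 and Eif2ak3. The reverse was seen for 0 members, against 4.22%. For Hsp90ab1 the summed widths were 2773 and 2521 bp in KI and 1187 and 1665 bp in WT. For Eif2ak3 they were 1937 and 1374 bp against 712 and 1085 bp. Both genes rest on an extra peak in 1 KI list. The KI 2 value of Hsp90ab1 is the sum of 1389 and 1132 bp, and the KI 1 value of Eif2ak3 that of 895 and 1042 bp. With the highest-scoring peak of each gene alone, these 2 genes no longer stood apart, and 5 members did (29.4%), against 36.1% of all these genes. With 2 libraries against 2 an exact test cannot go below a p of 0.333, so widths were not tested.

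**Figure D4:**
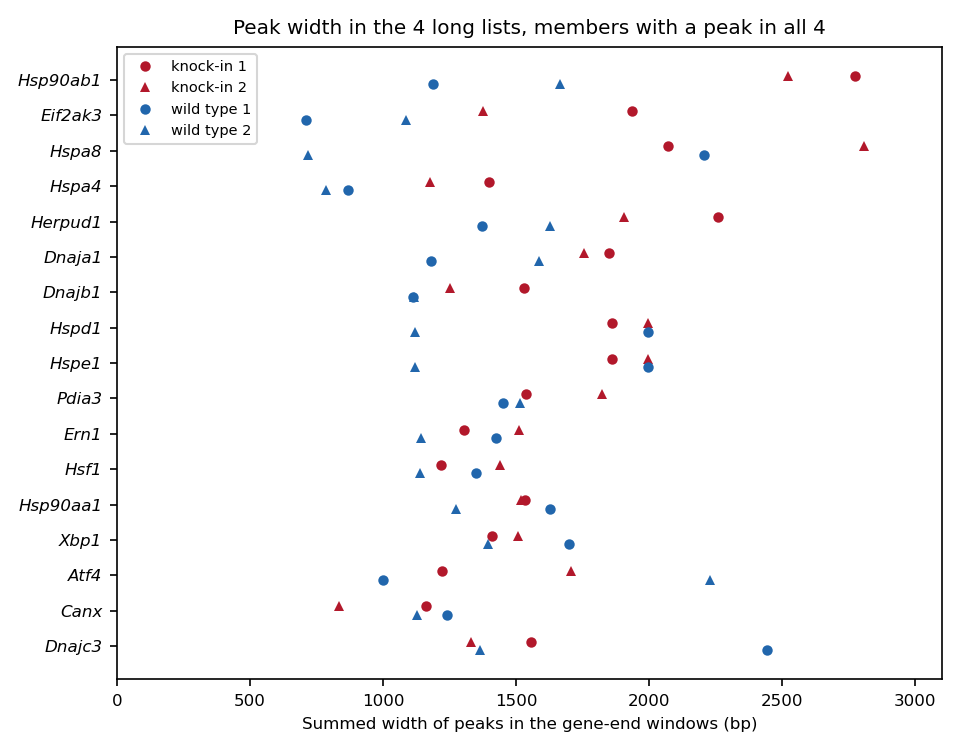
Points give the summed width in bp of the peaks at each gene's ends in the long lists (red, knock-in; blue, wild type; circle, replicate 1; triangle, replicate 2), for the 17 genes with a peak in all 4. Genes are ordered by the log2 ratio of the genotype means, from 0.89 for Hsp90ab1 at the top to -0.40 for Dnajc3 at the bottom, where the WT 1 value includes a separate peak at the far end of the gene.

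Peaks at these genes lay over and just inside the start. Of 82 peaks at members with a known start in the long lists, 70 covered it, and the median of their midpoints was 307 bp into the gene. In the short lists 1 of 13 covered it, with a median midpoint of 284.5 bp. Those that did not cover it included a peak past the far end of Dnajc3 in WT 1, which also touched the window of Uggt2, and peaks upstream of Ddit3, Hsp90b1 and Eif2ak3. The shared peaks of Hspd1 and Hspe1 are counted for each gene. Of the 33 detected members, 9 had at least 1 peak that also touched the window of another protein-coding gene.

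Promoters of the members were mostly richer in CpG than those of coding genes in general. Observed over expected CpG in the 300 promoter bases had a median of 0.813 over the 32 members and 0.576 over all coding genes. Hspa1a and Hspb1, which had no peak, and Xbp1 lay below 0.576. The median was 0.849 over the 19 members found in 3 or more libraries. It was 0.797 over the 7 found in 1 or 2, and 0.671 over the 6 found in none. Over all coding genes the medians in the same order were 0.83, 0.750 and 0.272. Xbp1, found in 5 libraries, had the lowest value of the 32 members, 0.535. Among the 6 without a peak, Hspa1a, Hspb1, Hspa2, Bag3 and Pdia4 lay between 0.542 and 0.692 and Hsf2, whose start the windows miss, at 0.943.

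**Figure D5:**
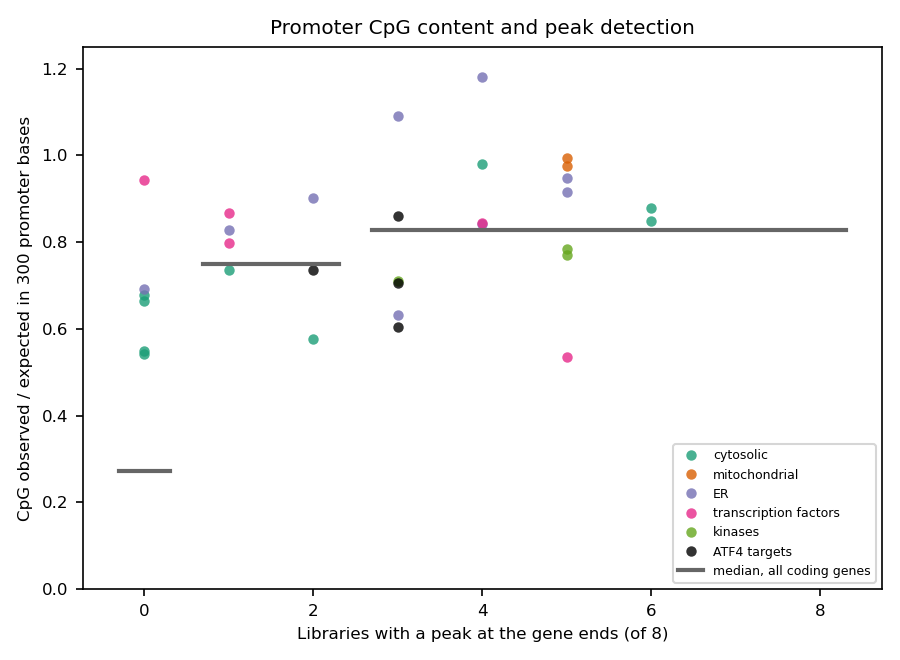
Each point is a member with a RefSeq promoter (32 genes, coloured by class), placed by the number of libraries with a peak and by the observed over expected CpG of its 300 promoter bases. Grey lines are medians over all coding genes found in 0, in 1 or 2, and in 3 or more libraries. The members found in no library lie at 0.542 and above, over the grey line at 0.272.

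Of 81 further genes of the same pathways, 56, 54, 13 and 0 had a peak in KI 1 to 4 and 45, 48, 7 and 1 in WT. Among the 66 found in 1 to 7 libraries, 29 (43.9%) were in more KI lists, against 48.1% of all genes tested, and 12 (18.2%) in more WT lists, against 11.6%. The adjusted test called 0 of them, and 2 had an unadjusted p under 0.05. Of 22 other ATF4 targets, 12, 12, 3 and 0 had a peak in KI and 8, 10, 3 and 1 in WT, with 6 in more KI and 4 in more WT libraries. Of 16 other ER genes the counts were 12, 13, 1 and 0 against 12, 8, 1 and 0, with 6 in more KI and 2 in more WT libraries. Of 22 other cytosolic chaperones they were 17, 18, 7 and 0 against 12, 16, 2 and 0, with 11 in more KI and 1 in more WT libraries. The 8 subunits of the TRiC chaperonin had 6, 4, 0 and 0 against 3, 5, 0 and 0. The 13 other regulators had fewer in the long KI lists, with 9 and 7 against 10 and 9 in WT.

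A lead of 2 libraries in KI was seen for 7 of the 66 (10.6%), against 8.8% of all genes tested. They were Dnajc5, Dnajc7, Cct5, Sel1l, Aldh18a1, Cars and Sars, each in 2 and 0, with an exact p of 0.501. Cars and Sars encode aminoacyl-tRNA synthetases. Eif2ak2 and Eif2s1, which encode the kinase PKR and the eIF2alpha subunit it phosphorylates, were each in 0 KI and 2 WT libraries, with an exact p of 0.027, which adjustment took to 1.00. They make up 3.03% of the 66, against 0.672% of all genes tested. Peaks of Eif2ak2 also touched the window of Gm26637 and those of Eif2s1 the window of Atp6v1d. Most of these peaks were weak. In WT 1 and WT 2 they stood at percentiles 4.44 and 11.7 for Eif2ak2 and 54.8 and 2.41 for Eif2s1. The WT 2 peak of Eif2s1 lay wholly upstream of the start and the WT 1 peak of Eif2ak2 inside the gene, so neither covered it.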

How the data were processed

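H3K9ac ChIP-seq (chromatin immunoprecipitation and sequencing) of cerebellum was deposited as 1 peak list per library, 4 knock-in and 4 wild type. Per the file headers, peaks were called with MACS in Galaxy, library by library. Bowtie2 and mm10 are named in the submitters' processing notes. The version and settings of MACS were not given in the sources used here, nor was an input control. Each deposited score is the authors' own value per peak, with a lowest value near 50 in every list. Its scale is not stated, so it served only for percentiles within a list. The lists hold no read counts.

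Gene ends came from a RefSeq table (GRCm38.p6) and promoters and strand from a RefSeq promoter table. A peak overlapping the window of 1 kb by 1 base or more counted, and 15 starts below 0 were set to 0. The conditional exact test used library odds of detection, fitted by a Rasch model to the genes found in each library and not to list length. Benjamini-Hochberg adjustment was over all genes at 0.05. The test was checked on simulated data without a difference, and with planted genes found in every library of 1 genotype and none of the other. Its power for smaller splits, such as those of the members, was not checked. The report gives values for members whose detection differed by 2 or more libraries, those in 6 or more libraries, and the central genes of each pathway. The members, classes and lists were chosen with earlier results of these data known. Alternatives were other windows, the start site alone, a stricter overlap, the higher-scoring part of each list, lists of equal length, Fisher's exact test, the replicate number as a block, and each library left out. Analysis of replicates 1 and 2 only was added after the data were seen. Python 3.11.15, NumPy 2.4.6, pandas 2.3.3 and SciPy 1.17.1 were used.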

Additional observations from a re-analysis of the deposited data

Results flagged for a closer look

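The number of ATF4 targets with a peak was 2 in wild type replicate 1 and 0 in wild type replicates 2, 3 and 4, so replicate 1 stood apart from the others of its genotype by Dixon's ratio for 4 values. In knock-in the counts were 4, 4, 1 and 0. Of 14 such groups of 4 libraries examined (all members and the 6 classes, in each genotype), this was the 1 that stood apart. Chance gives about 1 in 20 for continuous values, but that rate does not hold for tied counts: with a peak count above 0 in a single library the ratio is at its highest whatever the count, and wild type replicates 3 and 4 are short lists. Wild type replicate 1 had the longest list of the 8, 11409 peaks. The part of list length in this count was not tested.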

How the results depend on the processing

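No member passed the adjusted test under any of 17 alternatives. Over all genes the count was 0 throughout, save for 1 gene, Lrrc74b, without wild type replicate 2 (leaving out each library in turn gave 0 to 1 genes and 0 members). These counts say little about stability. Fisher's exact test could not call a member, and in the main conditional exact test the smallest adjusted p over all genes was 0.744. The replicate numbers were not taken to pair libraries, because the labels do not say that a number pairs animals. Deviations from the genotype means correlated at 0.0463, 0.112, 0.135 and 0.401 for numbers 1 to 4. For knock-in replicates 2, 3 and 4 the wild type library of the same number correlated most. Knock-in replicate 1 correlated slightly more with wild type replicate 2 (0.053). With the replicate block, 0 of 6290 genes and 0 of 23 members passed, and 50 genes had an unadjusted p under 0.05. Members in more wild type libraries numbered 1 with a window of 3 kb and 1 within replicates 1 and 2, in place of 2. They ranged from 2 to 12 with each library left out (11, 12 and 4 without knock-in replicates 1, 2 and 3; 10 and 12 without wild type replicates 3 and 4), because equal counts then become unequal shares. Those in more knock-in libraries ranged from 18 to 31, and members with any peak from 29 to 33. With the higher-scoring part of each list, 20 members had a peak and 10 were in more knock-in libraries. With lists of equal length (1266 peaks) 9 had one, knock-in led for 4 and wild type for 2, the ATF4 targets had 0 peaks in either genotype, and Xbp1 turned from wild type to knock-in (1 library against 0, exact p = 1.00). Both settings shorten lists by keeping their higher-scoring peaks, and the part of length or of score in these smaller counts was not tested. The mean of the median widths in the long knock-in lists, 1407 bp, was 1311.2 bp with the highest-scoring peak alone, 1369.5 bp with windows of 500 bp and 1501 bp with windows of 3 kb. Over 16 alternatives the p of Chac1 lay between 0.00879 and 1.00, and its adjusted p was 1.00 in each. Unknown depth and the short lists limit all counts: 0 members were seen in replicate 4, where the test could show no difference.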

Other observations

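Among the other pathway genes, Gars, which encodes glycyl-tRNA synthetase and is counted with the ATF4 targets, was in 7 of 8 libraries (3 knock-in, 4 wild type). It was the 1 gene among these and the 39 members that reached a list of replicate 4, by a peak of 173 bp in wild type. Its peaks in the long lists measured 1055 and 1113 bp in knock-in and 1346 and 1168 bp in wild type. Vldlr, Cebpg and Ero1a were found in 6 libraries each, with percentiles of 84.8 or more in every long list, and all peaks of Cebpg also touched the window of Gm45095. Dnaja2 and Dnajb4 were in 6 libraries too, with lower percentiles, down to 56.1 and 75.9 in WT 2. These genes were chosen after their values were seen.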
